A study of Mus musculus with 71 samples.

Results

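The transcripts of 9 genes of the oxidative stress response were followed in whole blood of mice with HOCl-induced systemic sclerosis. The genes were taken by symbol and comprised Nfe2l2, Keap1, Bach1, Mafg, Nqo1, Hmox1, Cat, Sod1 and Sod2. All 9 were found among the 10508 genes of the deposited normalized table and among the 55416 genes of the deposited count table. Terminal blood came from female Balb/c AnNRj mice, 6 weeks old at the start, in 6 labelled groups. Control (CTRL) mice received PBS (n = 11), and HOCl mice received intradermal HOCl on 5 days per week for 6 weeks (n = 12). Mice of the E07 and D11 groups received the same HOCl and a mAb against galectin-3, injected subcutaneously at 20 mg/kg every 5 days (n = 12 each). Mice labelled D06 and BPR21 also received HOCl (n = 12 each), and the sources used here do not explain those 2 names. HOCl mouse 8 has counts but no normalized values, which leaves 11 HOCl mice for the tests on normalized values. The groups were kept in separate cages, so cage and group cannot be told apart.

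NRF2, encoded by Nfe2l2, is a transcription factor that pairs with small MAF proteins such as MAFG and binds antioxidant response elements (ARE) in DNA. KEAP1 holds NRF2 in the cytoplasm and directs its degradation until oxidants modify KEAP1, and BACH1 is a repressor that occupies the same elements. Much of this control acts on the proteins, which were not measured here. NQO1, a quinone reductase, and HMOX1, which breaks down heme, are classic products of NRF2 target genes. The superoxide dismutases SOD1 and SOD2 turn superoxide into hydrogen peroxide in the cytosol and in mitochondria, and catalase (Cat) breaks that peroxide down. Catalase and cytosolic antioxidant enzymes are abundant in red cells and their precursors, and whole blood holds such cells beside leukocytes and platelets.

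The genes Cat, Sod2 and Nqo1 moved in 1 direction in each of the main comparisons reported next, and the 250 bases before their RefSeq start (GRCm38.p6) are shown for that reason, 5′ to 3′ on the strand of the gene. None of the 3 windows holds the ARE core TGACNNNGC, the AP-1 motif TGANTCA or the GATA motif AGATAA, each searched on both strands, so no letters are in capitals. Bases farther upstream were not searched, so elements there would be missed.
Cat (chr2:103485154-103485403, minus strand): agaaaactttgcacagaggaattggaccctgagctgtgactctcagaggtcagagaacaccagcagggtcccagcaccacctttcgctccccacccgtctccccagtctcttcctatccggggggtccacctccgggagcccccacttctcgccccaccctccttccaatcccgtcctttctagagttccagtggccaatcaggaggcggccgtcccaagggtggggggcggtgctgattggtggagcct
Sod2 (chr17:13007589-13007838, plus strand): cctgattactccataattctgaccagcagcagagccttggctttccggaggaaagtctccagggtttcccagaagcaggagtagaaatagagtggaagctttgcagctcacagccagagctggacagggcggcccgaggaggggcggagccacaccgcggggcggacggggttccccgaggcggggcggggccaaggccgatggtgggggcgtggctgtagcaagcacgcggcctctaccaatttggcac
Nqo1 (chr8:107403206-107403455, minus strand): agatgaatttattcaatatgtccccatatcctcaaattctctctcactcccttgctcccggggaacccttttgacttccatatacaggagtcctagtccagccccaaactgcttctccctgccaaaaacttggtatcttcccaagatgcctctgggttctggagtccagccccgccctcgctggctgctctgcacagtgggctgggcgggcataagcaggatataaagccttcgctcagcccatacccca

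The ARE core was found before the start of 3 of the 8 genes with a RefSeq promoter in the table, namely Nfe2l2, Mafg and Sod1. Of all 10442 promoters of genes in the normalized table, 12.0% hold it. The AP-1 motif, which can overlap an ARE, was found in none of the 8 and in 4.71% of all promoters. The GATA motif was found in Keap1 alone among the 8 and in 6.23% of all promoters. The stretches around the 3 ARE cores are shown to let the matched letters be seen, with the match in capitals and in the orientation of the gene.
Nfe2l2 (chr2:75704875-75704913, minus strand): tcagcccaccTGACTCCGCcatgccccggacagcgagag
Mafg (chr11:120633741-120633789, minus strand): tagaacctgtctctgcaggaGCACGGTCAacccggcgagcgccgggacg
Sod1 (chr16:90220686-90220734, plus strand): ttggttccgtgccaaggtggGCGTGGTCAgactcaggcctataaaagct

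The match lay 240 bases before the start in Nfe2l2, 222 in Mafg and 56 in Sod1, and in Mafg and Sod1 it reads on the opposite strand. These are matches of letters and not measured binding sites.

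Gene counts summed to 11932855 to 15948972 per mouse. Per length of the canonical transcript, Cat was by far the most abundant of the 9, with a median of 182 RPKM over 71 mice (lowest 85.6, highest 447). Sod1 followed at 19.2 RPKM, Nfe2l2 at 16.4 and Sod2 at 10.0, although the annotated canonical transcripts of Sod1 and Sod2 are long (5315 and 5983 bases) and shorter forms would raise their values. Keap1 had a median of 8.90 RPKM, Hmox1 7.27, Bach1 4.56, Mafg 3.85 and Nqo1 1.92. Nqo1 rests on few reads, with a median count of 73 and a range from 0 to 202, whereas Cat had a median count of 6324. In bulk blood, a change in the number of cells of a type cannot be told apart from a change in RNA per cell.

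Groups were compared on the deposited vst values, which are on a log2 scale, and a gene was called when its FDR was at most 0.05 and its fold change at least 1.3. HOCl mice had higher levels of Cat, Sod2 and Nqo1 than control mice, whereas Nfe2l2, Keap1, Bach1, Mafg, Hmox1 and Sod1 were not called. Thus 3 of the 9 genes were called, all higher, beside 4.96% of all genes tested (4.79% higher). E07 mice had lower levels of the same 3 genes than HOCl mice, beside 7.89% of all genes (7.01% lower). The E07 and CTRL comparisons share the HOCl mice, so opposite signs in them are not independent.

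**Figure D1:**
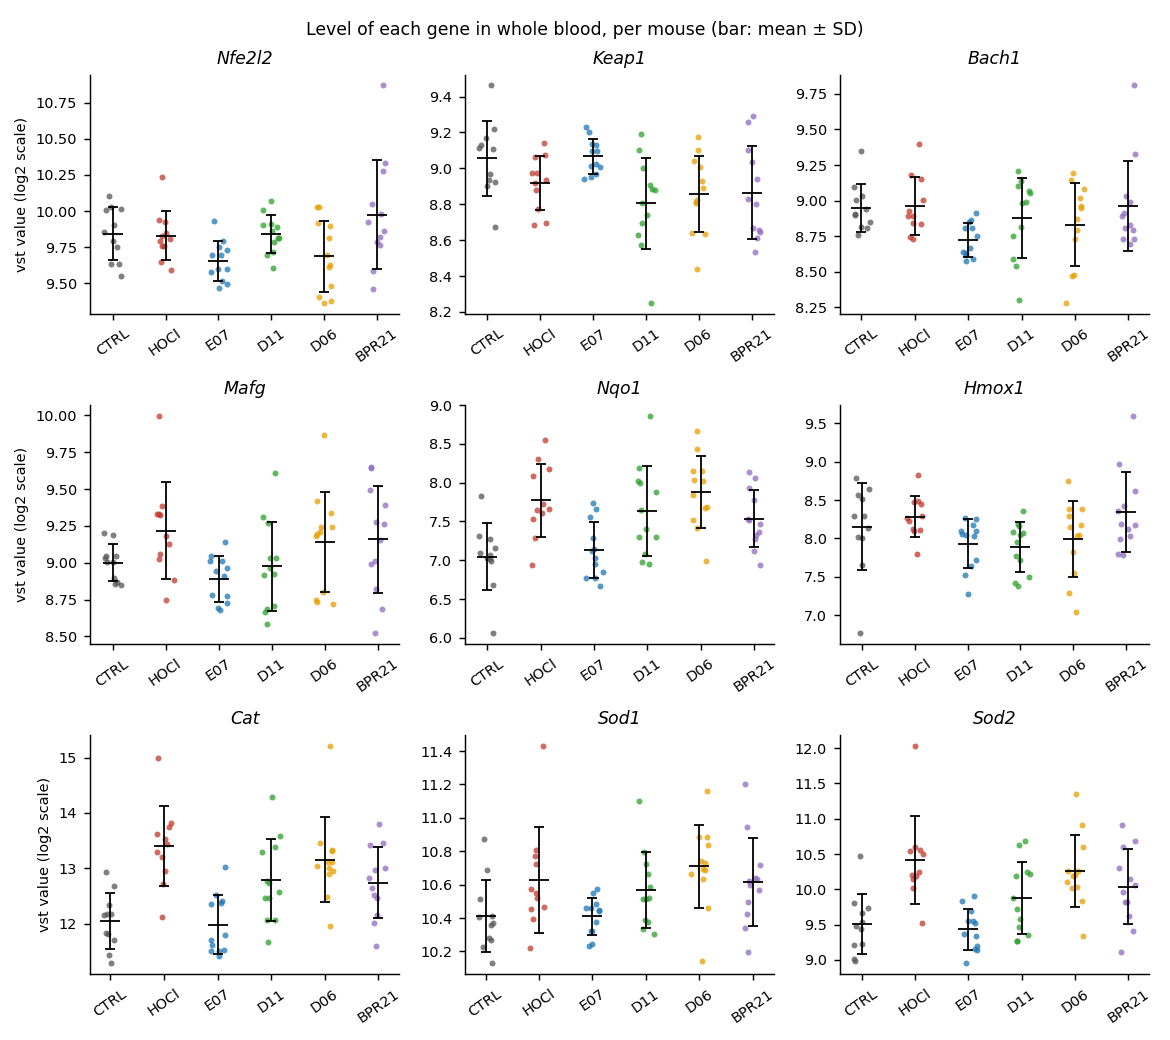
Level of each of the 9 genes per mouse, as deposited vst values on a log2 scale, in the 6 groups (points: mice, bars: mean ± SD, 11 CTRL and 11 HOCl mice, 12 in each other group). Cat, Sod2 and Nqo1 have higher means in HOCl than in CTRL and E07 mice, with groups that overlap, while the means of Nfe2l2 lie between 9.65 and 9.98.

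Catalase showed the largest change of the 9 on the vst values. The vst value of Cat ranged from 11.29 to 12.94 in control mice (median 12.16) and from 12.12 to 14.99 in HOCl mice (median 13.43). It ranged from 11.42 to 13.03 in E07 mice, with a median of 11.75. Of the 11 HOCl mice, 9 lay above every control mouse, and of the 12 E07 mice, 7 lay below every HOCl mouse, and in both comparisons the groups overlapped. Cat was 2.56-fold higher in HOCl than in control mice (log2 fold change 1.36, 95% CI 0.87 to 1.84, FDR = 0.00354). It was 2.68-fold lower in E07 than in HOCl mice (log2 fold change -1.42, CI -1.90 to -0.94, FDR = 0.000216). Mouse 7 of the HOCl group had the highest value, 14.99, and without it the differences were 1.20 and -1.26 and both remained called.

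The mitochondrial dismutase gene Sod2 followed the same order. Its vst value ranged from 8.98 to 10.47 in control mice (median 9.48), from 9.53 to 12.03 in HOCl mice (median 10.25) and from 8.95 to 9.90 in E07 mice (median 9.44). All 11 HOCl mice lay above the control median, but only 5 lay above every control mouse. The Sod2 level was 1.88-fold higher in HOCl than in control mice (log2 fold change 0.91, CI 0.49 to 1.33, FDR = 0.00832) and 1.98-fold lower in E07 than in HOCl mice (log2 fold change -0.98, CI -1.35 to -0.61, FDR = 0.000456). The cytosolic Sod1 moved less, and neither comparison was called (0.22 with FDR = 0.309, and -0.22 with FDR = 0.127).

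Of the 2 classic NRF2 products, Nqo1 was called and Hmox1 was not. The Nqo1 vst value ranged from 6.06, the value of a count of 0, to 7.83 in control mice (median 7.07) and from 6.94 to 8.55 in HOCl mice (median 7.65). E07 mice ranged from 6.67 to 7.74, with a median of 7.07. In all, 4 HOCl mice lay above every control mouse and 10 of 11 above the control median. Nqo1 was higher by 0.73 (log2, CI 0.37 to 1.09, FDR = 0.0123) in HOCl than in control mice, and lower by a log2 fold change of -0.65 (CI -0.97 to -0.32, FDR = 0.00638) in E07 than in HOCl mice. On the counts themselves, where the vst does not compress low values, edgeR gave 1.56 ± 0.42 (SE, FDR = 0.0305) and -1.39 ± 0.35 (FDR = 0.00647), beside 3.75% and 10.1% of all genes called. Hmox1 differed by 0.13 between HOCl and control mice (CI -0.22 to 0.49, FDR = 0.754). Hmox1 passed the FDR in E07 compared with HOCl mice (-0.35, FDR = 0.0398), although its fold change stayed under the limit.

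None of the 4 regulators was called between HOCl and control mice. Nfe2l2 had a median of 9.80 in HOCl and 9.86 in control mice, with a difference of -0.01 (CI -0.18 to 0.15, FDR = 0.954), and 3 of 11 HOCl mice lay above the control median. Bach1 differed by 0.01 (CI -0.16 to 0.19, FDR = 0.965) and Keap1 by -0.14 (CI -0.31 to 0.04, FDR = 0.418). Mafg differed by 0.22 (FDR = 0.272), and by 0.14 without HOCl mouse 7, which held the highest Mafg value of all mice at 10.00. In E07 compared with HOCl mice, Bach1 (-0.24, FDR = 0.0318) and Mafg (-0.33, FDR = 0.0292) passed the FDR with fold changes under 1.3. Nfe2l2 (-0.18, FDR = 0.097) and Keap1 (0.15, FDR = 0.125) did not pass.

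**Figure D2:**
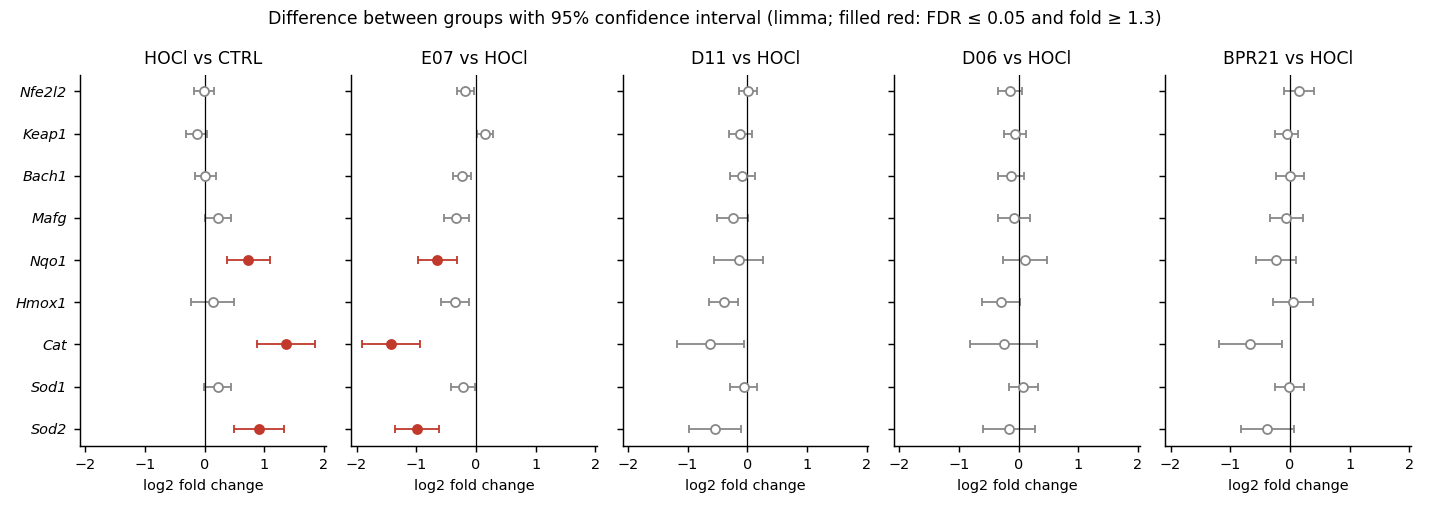
Log2 fold change of each gene with its 95% confidence interval (limma, x axis) in 5 comparisons. Filled red points mark Cat, Sod2 and Nqo1, called in HOCl vs CTRL and in E07 vs HOCl, and no gene is filled in the other 3 panels.

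None of the 9 genes was called in D11, D06 or BPR21 mice compared with HOCl mice, where 0.0571%, 0.133% and 0.638% of all genes were called. The difference of Cat from HOCl mice was -0.62 in D11 (CI -1.18 to -0.06, FDR = 0.312), -0.25 in D06 (CI -0.81 to 0.31, FDR = 0.752) and -0.66 in BPR21 mice (CI -1.19 to -0.13, FDR = 0.234). At an unadjusted p under 0.05, Cat, Sod2 and Hmox1 passed in D11 mice and Cat alone in BPR21 mice, with none in D06 mice. Of all 10508 genes, 1483 passed that limit in D11, 1474 in BPR21 and 1338 in D06 mice. In D11 mice, Hmox1 was lower than in HOCl mice by a log2 fold change of -0.40 (CI -0.64 to -0.15, FDR = 0.15). DESeq2 called it on the counts (-0.64, FDR = 0.0491), beside 2.25% of the 7462 genes to which it gave an FDR.

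Compared with control mice, the D06 group had higher Cat (1.11, FDR = 0.00334), Nqo1 (0.83, FDR = 0.00222) and Sod2 (0.75, FDR = 0.0062), beside 7.88% of all genes (7.27% higher). Of the 12 D06 mice, 9 lay above every control mouse for Cat, 7 for Nqo1 and 3 for Sod2. D06 mouse 5 had the highest Cat value of all mice, 15.21, and without it, a choice made after seeing the data, the 3 genes remained called (0.92, 0.76 and 0.65). None of the 9 was called in E07, D11 or BPR21 mice compared with control mice, beside 0.00952%, 0.0761% and 0.504% of all genes. The difference of Cat from control mice was -0.07 in E07 (CI -0.46 to 0.33), 0.73 in D11 (CI 0.25 to 1.22) and 0.69 in BPR21 mice (CI 0.24 to 1.15), and that of Nqo1 was 0.59 in D11 (FDR = 0.131) and 0.49 in BPR21 mice (FDR = 0.0982).

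The E07 group could also be set against the other treated groups directly. Cat was lower in E07 than in D11 (-0.80, FDR = 0.0395), D06 (-1.17, FDR = 0.000693) and BPR21 mice (-0.76, FDR = 0.0291), where 4.57%, 9.76% and 7.26% of all genes were called (4.27%, 8.42% and 5.69% lower). Sod2 was lower in E07 than in D06 (-0.83, FDR = 0.000355) and BPR21 mice (-0.61, FDR = 0.0222), and Nqo1 was lower in E07 than in D06 mice (-0.75, FDR = 0.000824). Keap1 passed the FDR in E07 compared with D11 mice (0.26, FDR = 0.0491), and Sod1 in E07 compared with D06 mice (-0.30, FDR = 0.0129), both with fold changes under 1.3. None of the 9 was called between D11 and D06 or D11 and BPR21 mice, where limma called 0 genes in all (655 and 621 at an unadjusted p under 0.05), nor between D06 and BPR21 mice, with 0.0571% of all genes.

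In the order of the group means, Cat ran from HOCl (13.40) through D06 (13.15), D11 (12.78), BPR21 (12.74) and CTRL (12.05) to E07 (11.98). The order of Sod2 was HOCl (10.42), D06 (10.26), BPR21 (10.04), D11 (9.88), CTRL (9.51) and E07 (9.43), and that of Nqo1 was D06 (7.88), HOCl (7.77), D11 (7.63), BPR21 (7.54), E07 (7.13) and CTRL (7.05). For all 9 genes together, 0 of the 45 pairs of neighbouring groups were called by limma, and 3 passed an unadjusted p under 0.05. Pairs were picked by the observed means, which makes gaps between neighbours small and those between the highest and lowest group large. The highest and the lowest group differed past both limits for Cat, Sod2 and Nqo1. For the other 6 genes they did not, and the largest difference between their group means was 0.45, for Hmox1 between BPR21 and D11 mice.

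Markers of red cell precursors moved with the same groups, in libraries from which globin RNA had been depleted. A list of 17 erythroid genes, such as the band 3 gene Slc4a1 and the heme synthesis gene Alas2, held a mean of 6.93% of the counts of a control mouse (SD 2.22, n = 11), 11.4% of those of a HOCl mouse (SD 2.42, n = 12) and 6.49% of those of an E07 mouse (SD 1.57, n = 12). The share was 8.37% ± 2.68 in D11, 9.66% ± 2.79 in D06 and 8.66% ± 1.86 in BPR21 mice (n = 12 each). The erythroid share was 4.45 percentage points higher in HOCl than in CTRL mice (permutation test, two-sided, with an adjusted p of 0.00054 in 18 tests) and differed by -4.89 points in E07 compared with HOCl mice (adjusted p = 0.00036). Of the 17 genes, 16 were called higher in HOCl than in control mice, all 17 lower in E07 than in HOCl mice and all 17 higher in D06 than in control mice. The share also differed by -3.01 points in D11 compared with HOCl mice (adjusted permutation p = 0.0356) and by -2.72 points in BPR21 compared with HOCl mice (adjusted permutation p = 0.026). In both comparisons limma called none of the 9 genes and 0 of the 17 erythroid genes, whose median log2 fold changes were -0.62 and -0.67. In D06 compared with control mice the share differed by 2.73 points (adjusted permutation p = 0.0358).

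Of the other blood cell markers, those of platelets moved with the erythroid genes in HOCl vs CTRL, E07 vs HOCl and D06 vs CTRL. They did not in D11 or BPR21 vs HOCl, and the other lists moved with the erythroid genes in part or not at all. The share of counts in 13 neutrophil genes did not pass in any of the 9 comparisons (adjusted p from 0.26 to 0.912), but on the vst values 3 of the 13 were called higher in HOCl than in control mice, with a list median of 0.47, and 3 lower in E07 than in HOCl mice, with a median of -0.45. Of 8 measured platelet genes, 5 were called higher in HOCl than in control mice (median 0.51), 8 lower in E07 than in HOCl mice (median -0.52) and 6 higher in D06 than in control mice (median 0.70). Compared with HOCl mice, the platelet median was -0.01 in D11 and 0.07 in BPR21 mice, with 0 genes called. Compared with control mice, it was 0.54 in D11 and 0.58 in BPR21 mice. Of 9 B cell genes, 8 were called higher in E07 than in HOCl mice (median 0.53) and 0 were called in HOCl compared with control mice. Of the monocyte, T cell, NK cell and eosinophil genes, 0 were called in HOCl compared with control mice. In E07 compared with HOCl mice, 1 of 9 monocyte genes was called lower and 2 of 4 measured eosinophil genes higher, with 0 T cell and 0 NK cell genes called. The part of platelets, B cells and the cells of these other lists in the levels of the 9 genes was not tested.

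Within groups, the 3 genes called above followed the erythroid genes from mouse to mouse. After group means were subtracted, the mean z-score of the 17 genes (erythroid score) correlated with Cat at r = 0.966 (rho = 0.967), with Sod2 at r = 0.923 (rho = 0.903) and with Nqo1 at r = 0.764 (rho = 0.739) over 70 mice (two-sided permutation p = 1e-05 each, the smallest that 100000 resamples can give, and adjusted p = 3.6e-05 over 54 correlations). Without the 2 mice farthest from the median on the x axis, r was 0.959, 0.912 and 0.735. In the 6 groups taken singly, r ranged from 0.940 to 0.990 for Cat, from 0.862 to 0.954 for Sod2 and from 0.551 to 0.861 for Nqo1. HOCl mouse 7 and D06 mouse 5, the mice with the highest Cat values, had the highest erythroid shares, 17.1% and 17.5%.

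**Figure D3:**
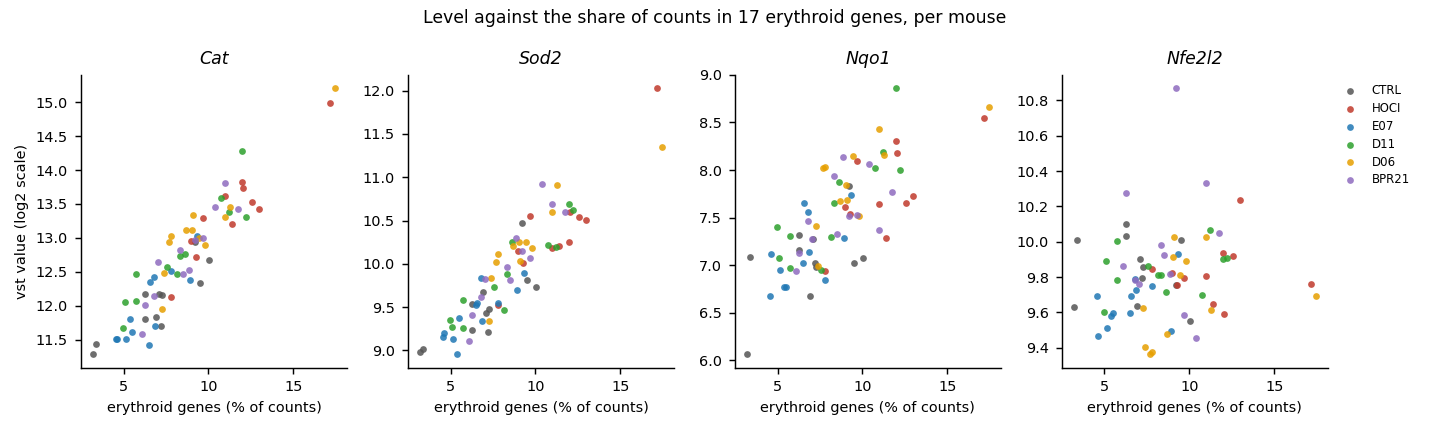
Vst value (log2 scale) of Cat, Sod2, Nqo1 and Nfe2l2 (y axis) against the share of counts in 17 erythroid genes (x axis), 1 point per mouse, coloured by group. The mice at 17.1% and 17.5% have the highest Cat values. With the erythroid score, which is not the share drawn here, r was 0.966 for Cat, 0.923 for Sod2, 0.764 for Nqo1 and 0.186 for Nfe2l2 (group means removed).

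With the erythroid score as a covariate, none of the 9 genes was called in HOCl vs CTRL, where 0.00952% of all genes were called (1 gene), or in E07 vs HOCl, where 0 genes were called and 1109 passed an unadjusted p under 0.05. The difference of Cat between HOCl and control mice was then 0.22 ± 0.10 (SE), that of Sod2 -0.00 ± 0.13 and that of Nqo1 0.03 ± 0.15. In E07 compared with HOCl mice, the differences were -0.05 ± 0.11, -0.02 ± 0.14 and 0.10 ± 0.16. In D06 compared with control mice, they were -0.00 ± 0.12, -0.03 ± 0.12 and 0.20 ± 0.15, none called beside 0.0381% of all genes. The score itself differs between the groups, so the covariate takes up part of the difference between them.

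The genes also correlated with each other from mouse to mouse. Cat and Sod2 correlated at r = 0.894 (rho = 0.871), Nqo1 and Sod2 at r = 0.762 (rho = 0.742) and Cat and Nqo1 at r = 0.756 (rho = 0.724), each with an adjusted permutation p of 3.6e-05. Mafg (r = 0.717) and Sod1 (r = 0.694) also correlated with the erythroid score on the vst values (rho = 0.653 and 0.625, adjusted permutation p = 3.6e-05), but with values scaled by the total count of each mouse r was -0.17 for Mafg and -0.56 for Sod1. For Cat, Sod2 and Nqo1 it was 0.883, 0.713 and 0.618 on that scale. Nfe2l2 (r = 0.186), Keap1 (-0.13), Bach1 (0.063) and Hmox1 (0.150) showed no correlation with the erythroid score that passed the adjustment on the vst values. With total-count scaling, r was -0.59 for Nfe2l2, -0.59 for Keap1 and -0.56 for Bach1 (rho = -0.55, -0.55 and -0.55, adjusted permutation p = 3.6e-05 each) and -0.22 for Hmox1 (adjusted permutation p = 0.112), whose rho was -0.30 (adjusted permutation p = 0.0214).

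Hmox1 instead correlated with the neutrophil score, at r = 0.600 (rho = 0.614, adjusted permutation p = 3.6e-05). The heme-degrading enzyme gene also correlated with Nfe2l2 (r = 0.597, rho = 0.571, adjusted permutation p = 3.6e-05) and with Bach1 (r = 0.459, rho = 0.378, adjusted p = 0.000953), and Nfe2l2 and Bach1 correlated with the neutrophil score at r = 0.440 and 0.486 (rho = 0.394 and 0.432, adjusted permutation p = 0.0108 and 0.00096). Within single groups, r of Hmox1 with Nfe2l2 ranged from 0.355 to 0.788, whereas r of the neutrophil score ranged from -0.11 to 0.816 for Nfe2l2 and from -0.10 to 0.904 for Bach1. BPR21 mouse 11 had the highest Nfe2l2 (10.87), Bach1 (9.81) and Hmox1 (9.60) of all mice, and a neutrophil share of 1.48% where the BPR21 median was 0.399%. Mafg and Sod1, which correlated with the erythroid score on the vst values, also correlated with the neutrophil score there. Their r was 0.410 and 0.339 (rho = 0.305 and 0.285, adjusted permutation p = 0.00512 and 0.0281). Keap1 ran opposite to the neutrophil score, at r = -0.43 (rho = -0.39, adjusted permutation p = 0.00149) on the vst values and 0.105 with total-count scaling. These correlations are over mice that share a library preparation and a normalization, and the part of cell composition in them was not tested.

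**Figure D4:**
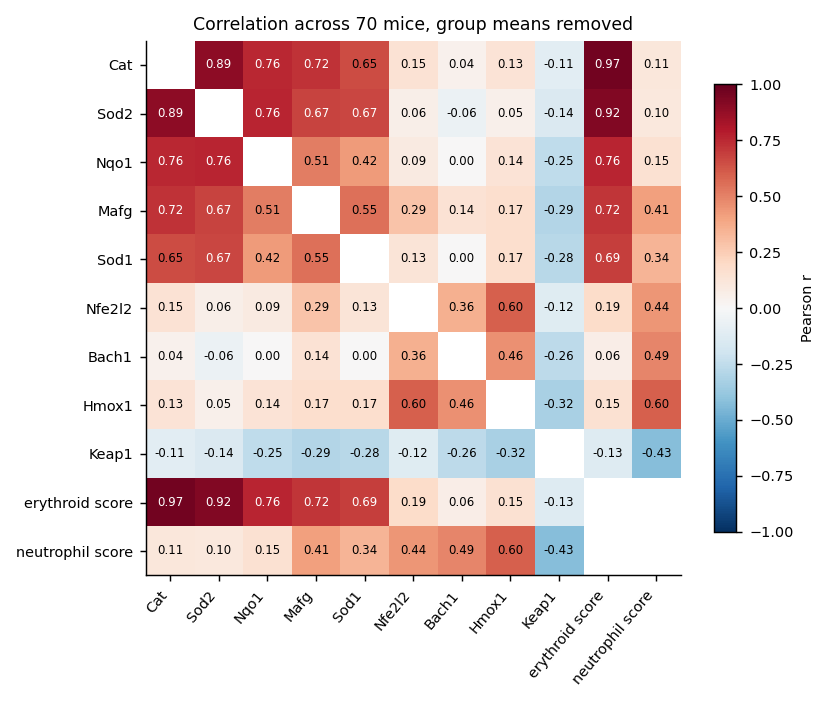
Pearson r between the 9 genes and with the erythroid and neutrophil scores, over 70 mice with group means removed (colour and number). Cat, Sod2 and Nqo1 correlate with each other and with the erythroid score at 0.756 or above, and Nfe2l2, Bach1 and Hmox1 correlate with the neutrophil score at 0.44 to 0.60. Mafg and Sod1 correlate with the erythroid score and, at 0.41 and 0.34, with the neutrophil score.

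By Pearson r over the 70 mice with group means removed, the genes most like Cat were Cul4a (r = 0.970), Fbxo9 (0.968) and Bcl2l1 (0.968), those most like Sod2 were Atp5h (0.941) and Pttg1 (0.940), and those most like Nqo1 were Nusap1 (0.813), Xpo7 (0.796) and Mpp1 (0.796). Mafg was most like Chp1 (0.812), Abhd4 (0.787) and Eif2ak1 (0.777), and Sod1 most like Myl6 (0.847) and the ribosomal protein genes Rps12 (0.843) and Rpl38 (0.842). Nfe2l2 was most like Hdc (0.699), Inpp5a (0.685) and Cd44 (0.683), Bach1 most like Dhrs9 (0.706), Igf1r (0.670) and Entpd1 (0.657), and Hmox1 most like Ppp1r3d (0.736), Lrg1 (0.717) and Acta2 (0.711). Keap1 had the weakest likeness, to Mogs (0.639), Sting1 (0.602) and Dtx1 (0.572).

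The other genes of the pathway were read from lists. Of 10 measured partners of NRF2 and KEAP1, 2 were called higher in HOCl than in control mice, Sqstm1 (0.80), whose protein p62 binds KEAP1, and Nfe2 (0.61), an NRF2 relative known for its role in platelet and red cell precursors. Of 22 measured genes known as NRF2 targets, 7 were called higher and 0 lower, led by Blvrb (1.62), Gclm (1.03) and Slc48a1 (1.02). Of 11 further antioxidant enzyme genes, 4 were called higher, among them Glrx5 (1.36), Gpx1 (1.27) and Prdx2 (1.23), and of 7 genes of oxidant-producing enzymes 0 were called, as against 4.96% of all genes. The median log2 fold change was 0.09 for the partners, 0.19 for the targets, 0.35 for the antioxidant enzymes and 0.04 for the oxidant producers, with -0.02 over all genes. Blvrb (biliverdin reductase B), Slc48a1 (a heme transporter), Prdx2 and Glrx5 are well known from red cells and heme metabolism.

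In E07 compared with HOCl mice, 2 of the 10 partners were called lower, Sqstm1 (-0.99) and Nfe2 (-0.72), and none higher. Of the 22 targets, 8 were called lower, led by Blvrb (-1.67), Gclm (-1.12), the subunit gene that modulates glutathione synthesis, and Slc48a1 (-1.04). Of the antioxidant enzymes, 4 were called lower, including Glrx5 (-1.46), Prdx2 (-1.25) and Gpx1 (-1.11), and of the oxidant producers 1, the xanthine dehydrogenase gene Xdh (-0.39). Of all genes, 7.89% were called in this comparison (7.01% lower). The list medians were -0.09, -0.23, -0.33 and -0.06, with 0.02 over all genes, and all 17 erythroid genes were called lower in the same comparison.

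Among the 6 genes other than Cat, Sod2 and Nqo1, calls and signs depended on the scale. With total-count scaling, where the median of all genes shifted by -0.47 between HOCl and control mice and 52% of all genes were called, Nfe2l2 (-0.49), Bach1 (-0.45) and Keap1 (-0.64) were called lower, and relative to that median they differed by -0.02, 0.02 and -0.17. Mafg (-0.21), Hmox1 (-0.19) and Sod1 (-0.25) also had negative signs on that scale, without a call, and 0.26, 0.28 and 0.22 relative to the median. Cat (0.90), Sod2 (0.55) and Nqo1 (0.98) were called higher on that scale too. In E07 compared with HOCl mice, the median of all genes shifted by 0.49 and 65.5% were called. Cat (-0.94), Sod2 (-0.61) and Nqo1 (-0.80) were called lower and Keap1 (0.67) higher, the last by 0.18 relative to the median. Nfe2l2 (0.30), Bach1 (0.18), Mafg (0.09) and Sod1 (0.27, FDR = 0.0254) had positive signs there without a call, and -0.20, -0.31, -0.40 and -0.23 relative to the median.

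**Figure D5:**
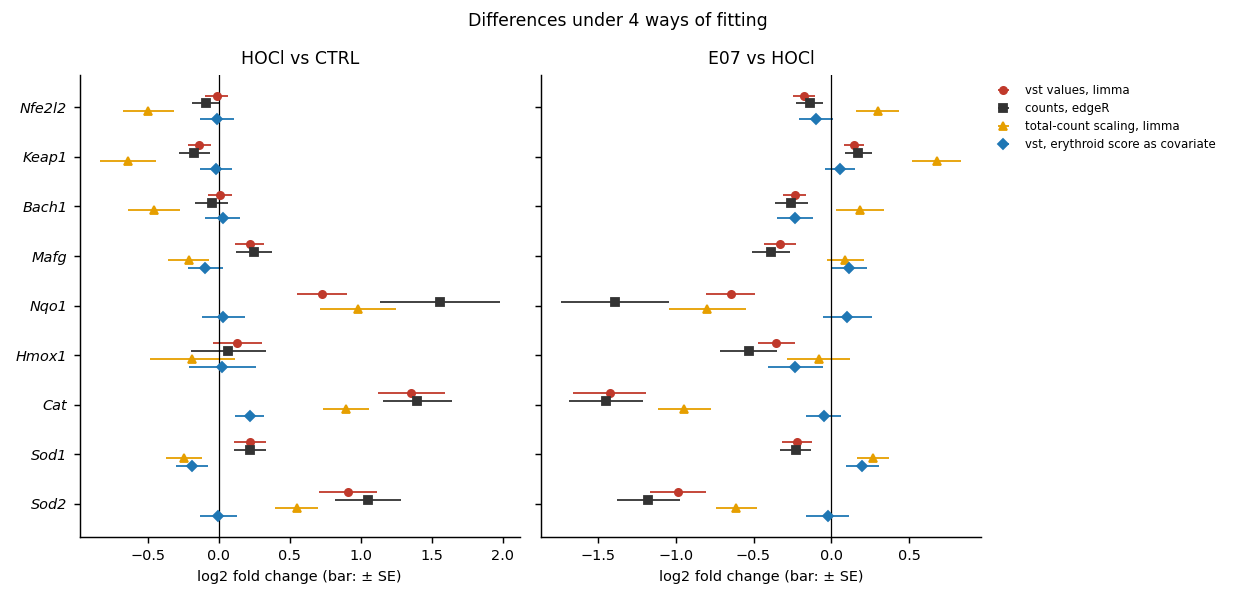
Log2 fold change (x axis, points, bars ± SE) of the 9 genes in HOCl vs CTRL and in E07 vs HOCl under 4 ways of fitting. Cat, Sod2 and Nqo1 keep their direction on vst values, counts and total-count scaling and lie within 0.22 of 0 with the erythroid score as a covariate, while Nfe2l2, Keap1 and Bach1 move with the scaling.

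The 9 genes lie on 6 chromosomes, with Nfe2l2 and Cat on chromosome 2, Bach1 and Sod1 on 16, Nqo1 and Hmox1 on 8, Keap1 on 9, Mafg on 11 and Sod2 on 17. In GRCm39, Cat spans chr2:103284194-103316185, Sod2 chr17:13224095-13259591 and Nqo1 chr8:108113835-108129934. The annotation places Sirt7 over Mafg on the same strand, Scaf4 over Sod1 on the opposite strand and antisense lncRNA genes over Cat, Keap1, Nfe2l2, Mafg and Sod2. The library kit marks the strand, but the strand setting of the counting is not given in the sources used here, so reads of these overlaps cannot be told apart, while Nqo1, Hmox1 and Bach1 have no overlapping gene.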

How the data were processed

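RNA from terminal whole blood of 71 mice was sequenced after poly A selection and globin depletion. Per the labels, the authors trimmed reads with cutadapt, aligned them to mm39 with STAR, counted reads per gene with featureCounts and normalized with DESeq2; the gene annotation and the versions of cutadapt, STAR and featureCounts used for the mice are not given in the sources used here. The authors deposited raw counts of 55416 genes, and values on a log2 scale from the vst function of DESeq2 for 10508 genes and 70 mice. The vst divides each library by a size factor, so values are relative to the bulk of genes, and it compresses genes with few reads (a count of 0 is listed at 6.06). The summed counts of a mouse (11932855 to 15948972) set the precision, which is lowest for Nqo1. There were 0 columns of per-sample values that matched no sample. A unique match in the counts was found for 10501 of the vst genes.

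Groups were taken from the sample titles, since the genotype label reads HOCL for control mice too. Each pair of groups was fitted alone with limma 3.58.1 in R 4.3.3 (two-sided, Benjamini-Hochberg over all genes tested), and counts with edgeR 4.0.16 (quasi-likelihood, TMM) and DESeq2 1.42.0. Total-count scaling is log2(CPM + 1) in limma. Levels between genes are RPKM from the counts and the canonical transcript of GENCODE vM39 (GRCm39). Scores are means of z-scored vst values, and shares and correlations were tested with two-sided permutation tests of 100000 resamples in Python 3.11.15 (numpy 2.4.6, scipy 1.17.1). Promoters are RefSeq's, of which 8 of the 9 genes had one in the table, and Hmox1 had none. The tests were tested on simulated data. The 9 genes, the lists and the motifs were chosen with earlier results of these data known. Named beside the 9 genes were, from each pathway list, up to 3 genes called higher and 3 called lower with the largest fold change in HOCl vs CTRL and E07 vs HOCl, and for each of the 9 the 3 genes with the highest Pearson r, of which 1 is not reported here. Other alternatives were the FDR alone, all groups in one fit, other size factors or no filter in edgeR, each mouse left out in turn, the mouse number as a block, and the erythroid or neutrophil score as a covariate.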

Additional observations from a re-analysis of the deposited data

How the results depend on the processing

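The 3 genes called in HOCl vs CTRL and in E07 vs HOCl (Cat, Sod2 and Nqo1) were called by limma, edgeR and DESeq2, with total-count scaling and with each mouse left out in turn. With 1 mouse left out, the number of the 9 genes called stayed at 3 in HOCl vs CTRL and ranged from 3 to 4 in E07 vs HOCl, where Hmox1 was added without HOCl mouse 10, E07 mouse 2 or E07 mouse 12. In HOCl vs CTRL, 6 were called with total-count scaling (Bach1 at -0.45 against 0.01), 1 (Cat) with the neutrophil score as a covariate and 0 with the erythroid score. These fits called 52%, 1.04% and 0.00952% of all genes, and the main fit 4.96%. In E07 vs HOCl, 6 were called without the fold limit, 5 by DESeq2 and by edgeR with median-of-ratios factors or without a filter (Mafg and Hmox1 added), 2 with the neutrophil score (Nqo1 lost) and 0 with the erythroid score. The share of the genes tested that was called was 15% without the fold limit, and 9.85% and 9.1% by these forms of edgeR. By DESeq2 it was 11.7% of the 12296 genes with an FDR. The share was 5.72% with the neutrophil score and 0% with the erythroid score, beside 7.89% in the main fit. In D06 vs CTRL, 7 were called with total-count scaling, where 67% of all genes were called and their median shifted by -0.57, which turned Mafg from 0.14 to -0.39 and lost Sod2, and 0 with the erythroid score. DESeq2 called 1 gene in D11 vs HOCl (Hmox1), D11 vs CTRL (Cat) and BPR21 vs CTRL (Cat), where the other tools called 0. In these comparisons DESeq2 called 168 of 7462, 243 of 4174 and 524 of 12742 genes to which it gave an FDR (2.25%, 5.82% and 4.11%). Limma on vst values called 0.0571%, 0.0761% and 0.504% of 10508 genes. DESeq2 gave some genes no FDR, so the shares of the 2 tools rest on different sets of genes. The erythroid covariate changed the sign of Sod2 in HOCl vs CTRL (to -0.00107), of Nqo1 in E07 vs HOCl (to 0.10), and of Cat and Sod2 in D06 vs CTRL (to -0.00329 and -0.034). Of the correlations, 24 passed the adjustment in both measures on vst values and 40 with total-count scaling. Of 1269 single-gene values over all alternatives, 1224 had the same status as in the main fit, either called in both or called in neither. Among these, 72 changed sign with neither value called. A call was gained by 28 values and lost by 11, and 6 changed sign with a call on either side.

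Mouse numbers recur across groups but name different animals. In no comparison did every same-numbered pair correlate above 0.1 (4 of 10 pairs in HOCl vs CTRL, 3 of 11 in E07 vs HOCl and at most 7 of 11, in E07 vs CTRL). In these comparisons, 3 of 20, 6 of 22 and 8 of 22 mice correlated best with their own number. The mean r of same-numbered pairs was 0.05, 0.06 and 0.15, and that of other pairs -0.001, -0.004 and -0.010. These values cannot decide whether mice of the same number share an effect. The main fits did not pair mice by number. With the number as a replicate block, 1 of the 9 genes was called in HOCl vs CTRL (Cat) and 85 of all genes in place of 521, while 2 were called in D11 vs CTRL (Cat and Nqo1) and 2 in BPR21 vs CTRL (Cat and Sod2), and the number of members called did not change in the other 6 comparisons. The block raised the share of all genes called to 1.09% in D11 vs CTRL and 5.08% in BPR21 vs CTRL, from 0.0761% and 0.504%.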
